A study of Mus musculus with 4 samples.

Results

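Homologous recombination, Fanconi, mismatch repair and related DNA repair genes were followed on 4 arrays of mouse colonic crypt cells. The set held 42 genes listed by symbol, of which 40 had a probe set carrying that symbol alone, among 18194 named genes in all. Xrcc2 and Rbbp8 were not analysed here. Where a gene had several probe sets, the one with the highest average of the 4 arrays stood for it, and the genes were grouped by repair pathway.

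The first pair of arrays came from male mice of the H2B-GFP genotype, in which a tetracycline-responsive element drives histone H2B joined to green fluorescent protein. These mice received doxycycline for 7 days and then none for 2 days. Crypts were isolated, and flow cytometry then separated GFPhigh cells, in which the label persisted (non-proliferating), from GFPlow cells, in which division had thinned it out (proliferating). The second pair came from crypts, with no sort named, of male mice with a doxycycline-inducible β-catenin gene, either untreated (Dox minus) or drinking water with 2.0 mg/ml doxycycline over 5 days (Dox plus). The inducible gene was thus present on both sides of the second pair, while doxycycline was present on one side only. Both sides of the first pair had received doxycycline. The sources used here do not give the strain and age of the mice, the number behind each array, or the cell type in which each transgene was switched on. Each group was 1 array, so no test between groups was possible and no difference below has a replicate check. In both pairs, fewer cells of a type and less RNA per cell cannot be told apart.

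DNA breaks that arise when replication forks meet damage are repaired in S and G2 phase by homologous recombination, in which BRCA1, PALB2 and BRCA2 act together on resected DNA. The Fanconi proteins unhook crosslinks between the strands, and mismatch repair corrects base pairs that the replicative polymerases left wrong. The kinases ATM and ATR signal breaks and stalled forks through CHEK2 and CHEK1. The colonic crypt divides continuously near its base, and inherited mutations of mismatch repair genes predispose people to colon cancer.

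All 12 markers of colonic epithelium examined, among them Epcam, Vil1 and Cdx2, were at or above a floor of 5 (log2) on all 4 arrays, with list means of 14.03 to 14.37. Values under 5 lie where the background model sets the reading, and were raised to 5 before differences were taken. A gene counted as measured in a pair when either of the 2 arrays was at or above 5. Markers of other cells were mostly under it: 6 of 9 T cell genes (Cd3e among them), 5 of 8 B and plasma cell genes, 5 of 9 myeloid genes, 6 of 8 fibroblast genes, and all 5 smooth muscle and all 5 endothelial genes were under the floor on all 4 arrays. The list means were 3.02 to 4.17 for T cells, 3.25 to 4.50 for B and plasma cells, 4.30 to 4.74 for myeloid cells and 3.22 to 4.27 for fibroblasts. As a yardstick within arrays, the first and second measured probe sets of the same gene gave differences that lay a median of 0.30 apart in the GFP pair (4079 genes) and 0.32 apart in the Dox pair (4064 genes), and 95% of them lay within 1.23 and 1.16. This yardstick leaves out the variation between mice.

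**Figure D1:**
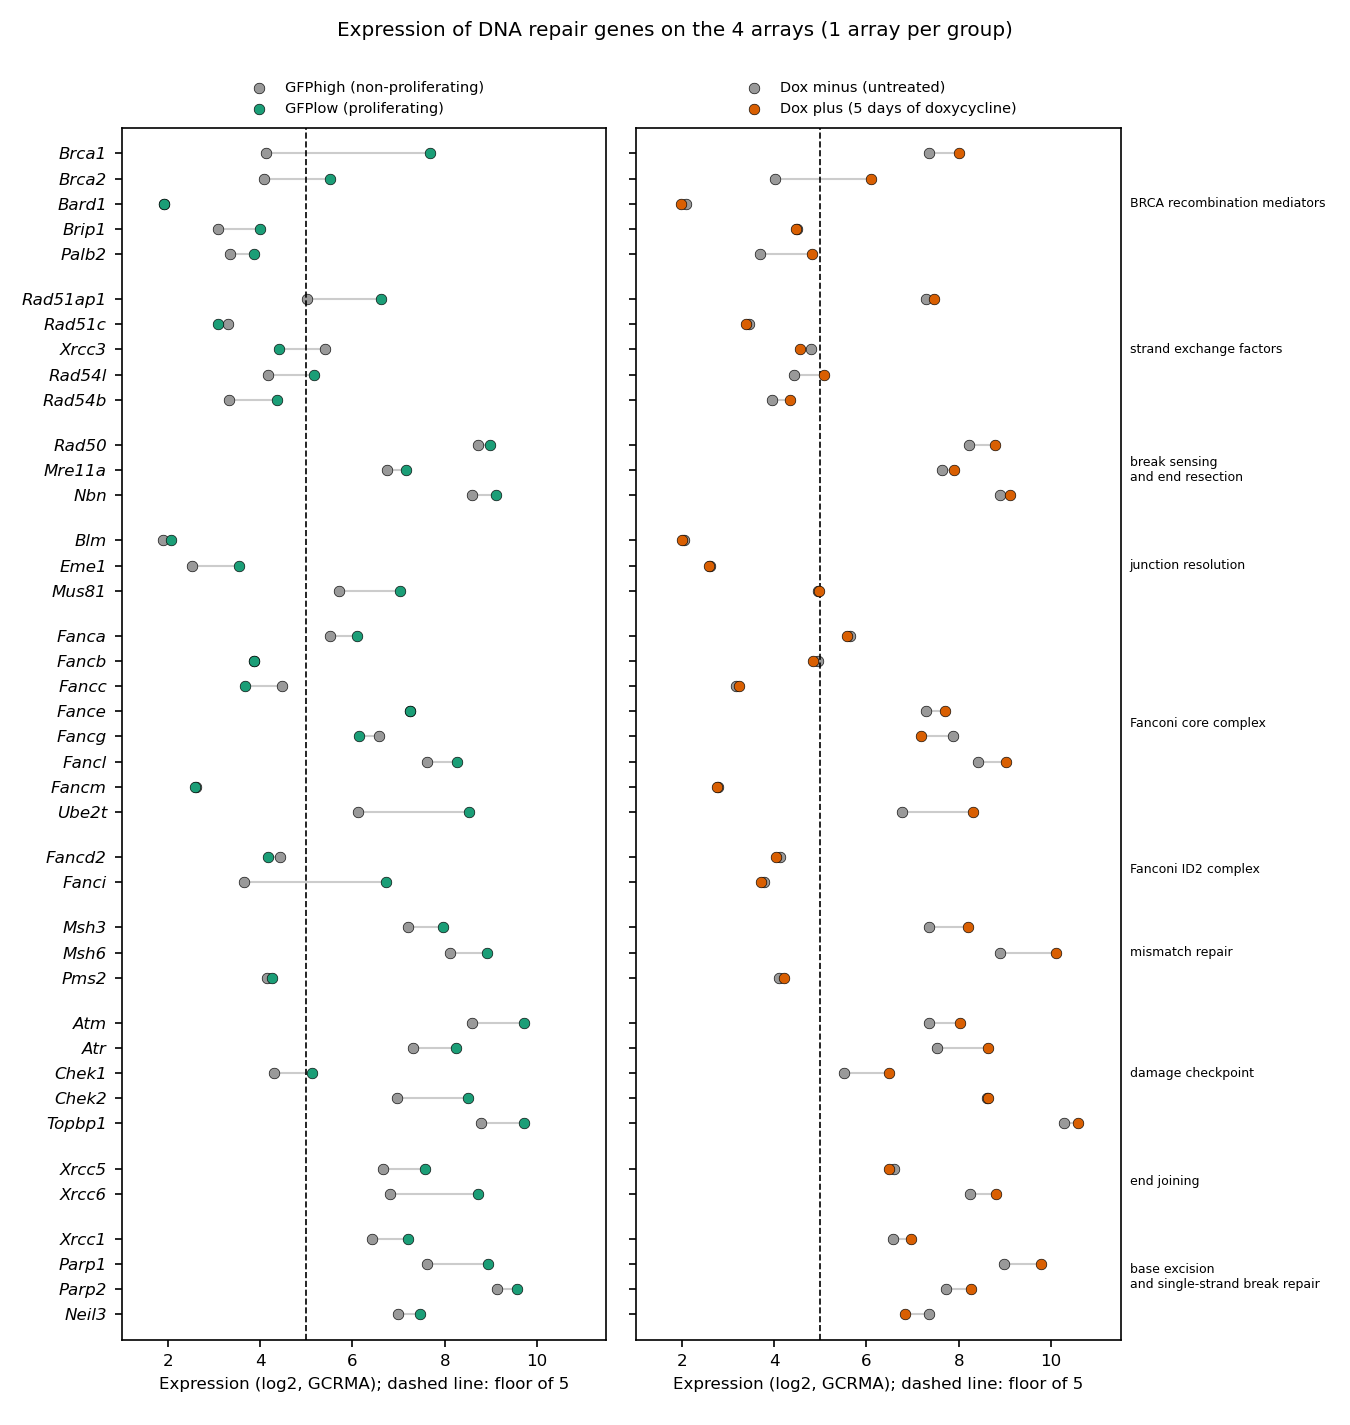
Expression of the 40 repair genes in log2 units on the sorted cells (left) and on the crypts with and without doxycycline (right); each point is 1 array and the dashed line is the floor of 5. The green GFPlow points lie to the right of the grey GFPhigh points for 25 of 28 measured genes, and 12 genes stay left of the floor on all 4 arrays.

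The first comparison asked how the repair genes differ between proliferating and non-proliferating crypt cells. Most measured repair genes had higher values in the proliferating cells, and none was 2-fold lower. Of 28 measured, 25 were above 0, with a median difference (GFPlow minus GFPhigh) of 0.77, or 1.71-fold. At least 2-fold higher in GFPlow were 9, or 32.1%, against 8.81% of all 9381 measured genes, and at least 2-fold lower were 0, against 4.3%. Over all measured genes the median difference was 0.04, and 53.2% were above 0. Genes that reached the floor on 1 array only had to differ, so the 22 repair genes that cleared it in GFPhigh and GFPlow alike were also counted: 7, or 31.8%, were at least 2-fold higher, against 7.86% of 8917 genes. Other genes moved with the same contrast. The interferon-stimulated list had 12 measured genes with a median of -0.70. Of these, 3 (25.0%, against 4.3% of all genes) lay below GFPhigh by 2-fold or more. Of 2 measured B and plasma cell genes, Igha was higher by at least 1.90 and Ighm differed by -0.14 or beyond. Itgae, higher by 1.03, was the only measured T cell gene of 9 with a probe set. The 4 measured myeloid genes had a median of 0.12, and the 2 measured fibroblast genes a median of -0.05. The part of these genes in the repair gene values was not tested.

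Brca1, the ubiquitin ligase that starts recombination at broken ends, had the largest difference with the floor of 5. It read 4.12 in GFPhigh and 7.69 in GFPlow, which gives at least 2.69 (6.45-fold), because GFPhigh lay under the floor. The size rests on that floor: it was 3.57 with a floor of 4 and 1.69 with a floor of 6, which placed it below Ube2t and Xrcc6. Ube2t, the ubiquitin-conjugating enzyme of the Fanconi pathway, read 6.11 and 8.52, a difference of 2.41 (5.31-fold) between values that both cleared the floor. Xrcc6, a subunit of the Ku ring that holds broken ends for direct joining, read 6.82 and 8.72, a difference of 1.90 (3.74-fold). Fanci, which is modified together with FANCD2 when a crosslink is met, read 3.66 and 6.73, a difference of at least 1.73, or of 0.73 with a floor of 6.

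The bases before the transcription start of these 4 genes are shown because they had the largest differences with the floor of 5, and those of Fance because its difference of -0.01 was nearest to 0. Each run holds the 250 bases before the start on the gene's own strand, from RefSeq (GRCm38.p6), with motif letters in capitals. The lines give Brca1 at chr11:101551956-101552205 (minus strand), Ube2t at chr1:134962315-134962564 (plus strand), Xrcc6 at chr15:82016119-82016368 (plus strand), Fanci at chr7:79392088-79392337 (plus strand) and Fance at chr17:28313280-28313529 (plus strand).
Brca1: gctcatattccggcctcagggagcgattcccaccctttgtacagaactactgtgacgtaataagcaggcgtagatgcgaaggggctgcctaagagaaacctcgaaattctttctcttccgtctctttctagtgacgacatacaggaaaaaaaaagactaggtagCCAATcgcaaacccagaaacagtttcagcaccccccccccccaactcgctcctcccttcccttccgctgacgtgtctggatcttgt
Ube2t: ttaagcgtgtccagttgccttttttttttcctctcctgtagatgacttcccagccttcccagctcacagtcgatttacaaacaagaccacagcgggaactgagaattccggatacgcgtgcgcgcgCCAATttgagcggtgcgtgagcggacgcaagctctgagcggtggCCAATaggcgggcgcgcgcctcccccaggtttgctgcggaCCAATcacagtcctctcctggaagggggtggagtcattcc
Xrcc6: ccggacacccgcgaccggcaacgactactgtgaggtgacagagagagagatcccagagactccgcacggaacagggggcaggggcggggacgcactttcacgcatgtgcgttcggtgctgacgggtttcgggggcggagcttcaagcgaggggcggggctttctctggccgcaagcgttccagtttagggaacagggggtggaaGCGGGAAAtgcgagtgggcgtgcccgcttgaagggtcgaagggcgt
Fanci: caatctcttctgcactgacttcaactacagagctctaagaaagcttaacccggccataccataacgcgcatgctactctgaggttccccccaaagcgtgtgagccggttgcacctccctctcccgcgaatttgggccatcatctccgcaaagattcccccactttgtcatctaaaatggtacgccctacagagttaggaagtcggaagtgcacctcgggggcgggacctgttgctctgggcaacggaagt
Fance: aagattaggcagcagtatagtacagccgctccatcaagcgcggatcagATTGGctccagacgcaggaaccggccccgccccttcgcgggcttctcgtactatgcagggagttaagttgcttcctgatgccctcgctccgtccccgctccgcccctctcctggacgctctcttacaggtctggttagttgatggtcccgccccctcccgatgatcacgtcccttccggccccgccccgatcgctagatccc
The motifs searched on both strands were those of E2F, the S phase transcription factors (TTTCCCGC, TTTCGCGC, TTTGCCGC, TTTGGCGC or TTCCCGCC, which overlap one another in part), the CHR element of mitotic genes (TTTGAA or TTCGAA) and the CCAAT box (CCAAT). The capitals mark 1 CCAAT box in Brca1, 3 in Ube2t, 1 E2F match in Xrcc6, no match in Fanci and 1 CCAAT box in Fance. Of the 36 repair genes with a listed promoter, 9 (25.0%) held an E2F match, against 3.24% of all 32851 promoters, 6.34% of those of 7717 genes measured in the GFP pair and 38.2% of those of 34 S phase genes. The mean GC content of these promoter groups was 58.2%, 53.2%, 60.3% and 60.0%. An E2F match was found in 2 of 9 genes at least 2-fold higher in GFPlow (22.2%), in 4 of 17 other measured genes (23.5%) and in 3 of 10 under the floor (30.0%). CHR letters were in 3 of 36 (8.33%), against 17.1% of all promoters, 12.1% of those of measured genes and 17.6% of those of S phase genes. A CCAAT box was in 19 (52.8%), against 33.8%, 36.4% and 58.8%, and against 57.1% of 14 nucleotide excision repair promoters. A match describes letters in this window and is no evidence of binding.

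Among the BRCA proteins, Brca2, which acts on single-stranded DNA after resection, read 4.09 in GFPhigh and 5.51 in GFPlow, a difference of at least 0.51, or of 1.42 with a floor of 4. Bard1, the partner of BRCA1, the helicase gene Brip1 and Palb2, which bridges BRCA1 and BRCA2, were under the floor on all 4 arrays. So the BRCA group rests on 2 of its 5 genes, both bounded by the floor.

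Rad51ap1, whose protein aids strand invasion, read 5.02 and 6.63, a difference of 1.61 (3.05-fold). Its second measured probe set gave at least 1.25, since its GFPhigh value lay under the floor. In the first, GFPhigh sat at the floor, and with a floor of 6 the difference was 0.63. The other strand-exchange genes were low: the translocase gene Rad54l differed by at least 0.16 and Xrcc3, which also serves recombination, by -0.41 or beyond, while Rad51c and Rad54b were under the floor on all 4 arrays. The Xrcc3 value comes from a probe set ending in _x_at, which can match several transcripts.

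The genes of the MRN complex, which finds breaks and begins to trim their ends, differed little. Rad50 read 8.73 and 8.99, a difference of 0.26. Mre11a, the nuclease, differed by 0.42 and Nbn, which recruits ATM, by 0.53. All 3 were above 0 and none was near 2-fold. Mus81, a nuclease that cuts joined recombination intermediates, read 5.71 and 7.03, a difference of 1.32 (2.49-fold), with its second probe set at 0.67 or more (1.23 without the floor), since its GFPhigh value lay under the floor. Its partner Eme1 and the helicase gene Blm were under the floor.

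The next group of 8 genes held the Fanconi core complex together with Ube2t, and the 5 measured had unlike values. Besides Ube2t, the ubiquitin ligase Fancl read 7.61 and 8.25 (0.64) and the scaffold Fanca 5.51 and 6.10 (0.59, or 0.11 with a floor of 6). Fance was level at 7.26 and 7.24, and Fancg differed by -0.43, at 6.58 and 6.15. Fancb, Fancc and Fancm were under the floor, as was Fancd2, the partner of Fanci. The measured core genes without Ube2t thus ranged from -0.43 to 0.64, beside 2.41 for Ube2t.

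Mismatch repair genes gave close values. Msh6, which recognises single mismatches and small loops, read 8.12 and 8.90, a difference of 0.78. Msh3, which recognises larger loops, read 7.20 and 7.97, a difference of 0.77. Both fall short of 2-fold, and Pms2, of the complex that acts next, was under the floor on all 4 arrays. All 5 checkpoint genes were above 0. Chek2, the kinase downstream of ATM, read 6.96 and 8.51, a difference of 1.55 (2.92-fold). Atm read 8.60 and 9.73 (1.13, and 1.19 in its second probe set). These 2 passed 2-fold, and the ATR activator Topbp1 (0.93) and Atr (0.92) lay just under it. Chek1, the kinase downstream of ATR, read 4.31 and 5.13, so it gave at least 0.13, or 0.82 with a floor of 4.

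Xrcc5, the other Ku subunit, read 6.66 and 7.57, a difference of 0.90 beside the 1.90 of Xrcc6. Parp1, which senses single-strand breaks, read 7.62 and 8.93, a difference of 1.31 (2.48-fold), and its 3 measured probe sets gave 0.88 to 1.51. Its relative Parp2 differed by 0.42, the scaffold Xrcc1 by 0.78 and the DNA glycosylase gene Neil3 by 0.48. All 6 genes of end joining and single-strand repair were above 0, and Xrcc6 and Parp1 were past 2-fold. Nearest the 2-fold line, Atm (1.13) lay just inside, and Topbp1, Atr and Xrcc5 just outside. The next past it were Parp1 (1.31) and Mus81 (1.32).

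**Figure D2:**
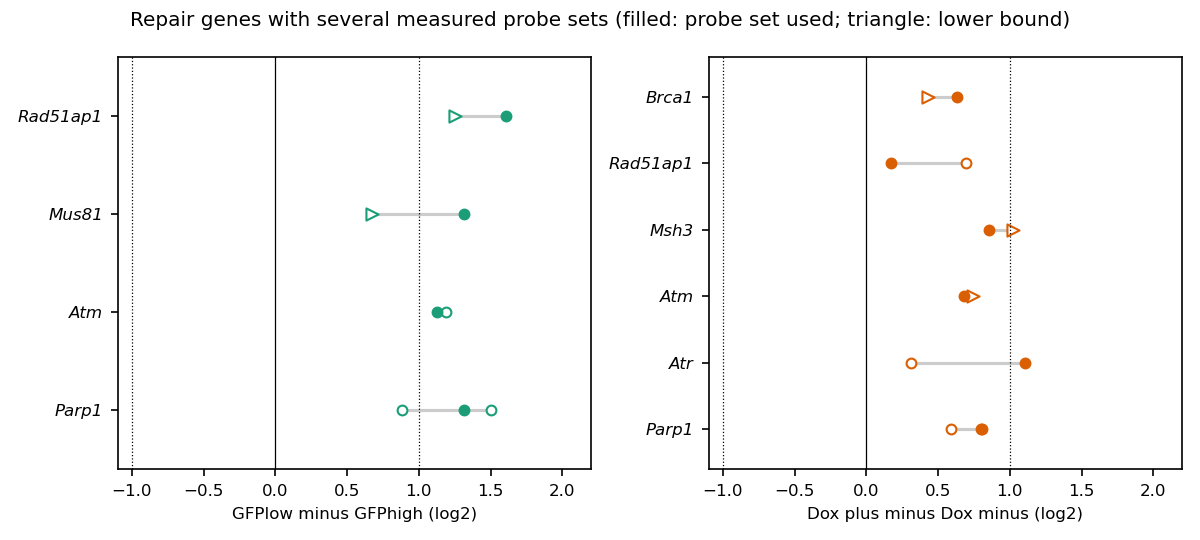
Differences in log2 units for the repair genes with at least 2 measured probe sets, GFPlow minus GFPhigh (left, 4 genes) and Dox plus minus Dox minus (right, 6 genes); the filled point is the probe set used open points are the others, and triangles are lower bounds. All lie above 0. Parp1 on the left and Atr on the right have points on both sides of the 2-fold line at 1. So does Msh3 on the right, with a bound of at least 1.02. For Mus81 on the left, the second point is a bound of at least 0.67, drawn under that line. Its value was 1.23 without the floor. The second points of Rad51ap1 on the left, and of Brca1 and Atm on the right, are also bounds.

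The second comparison asked how the repair genes differ in crypts in which doxycycline had switched on β-catenin for 5 days, where doxycycline itself and the induction cannot be told apart. Repair genes were again mostly higher on one side, here Dox plus, by smaller amounts. Of 25 measured, 21 were above 0 (84.0%, against 55.0% of 9537 measured genes), with a median difference of 0.55 (1.46-fold) against 0.06 for all genes. At least 2-fold higher in Dox plus were 4, or 16.0%, against 6.93% of all measured genes. At least 2-fold lower were 0, against 5.35%. Of the 23 that cleared the floor in Dox minus and Dox plus alike, 3 (13.0%) were 2-fold higher, against 6.37% of 9074 genes. With a loess correction 2 of the 25 were at least 2-fold higher, against 5.41% of all genes.

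Ube2t had the largest difference here, reading 6.76 in Dox minus and 8.30 in Dox plus, or 1.53 (2.89-fold). Msh6 read 8.90 and 10.09, a difference of 1.19 (2.29-fold). Of the alternative settings, only quantile normalization of the pair (1.39 for Ube2t, 1.12 for Msh6) and a loess correction (1.36 and 1.12) changed these values. Both genes stayed past 2-fold in each. Atr read 7.52 and 8.63, a difference of 1.11 (2.15-fold), but its second probe set gave 0.31 and the mean of both 0.71, and quantile normalization of the pair gave 0.96. Brca2 read 4.02 and 6.09, a difference of at least 1.09, which became 2.07 with a floor of 4 and 0.09 with a floor of 6. Just under 2-fold were Chek1 at 5.50 and 6.50 (0.99), Msh3 at 7.34 and 8.20 (0.85, with at least 1.02 in its second probe set) and Parp1 at 8.97 and 9.78 (0.80).

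Mismatch repair genes thus had differences of 0.85 and 1.19, and the checkpoint genes ranged from 0.01 to 1.11. Atm read 7.35 and 8.03 (0.68) and Topbp1 10.27 and 10.57 (0.30). Chek2 was level, at 8.62 and 8.63 (0.01). Among recombination genes, Brca1 read 7.36 and 7.99 (0.63), Rad51ap1 7.28 and 7.46 (0.18, with 0.69 in its second probe set), and Rad54l gave at least 0.09. The MRN genes differed by 0.56 (Rad50), 0.26 (Mre11a) and 0.22 (Nbn), all above 0 as in the sorted cells.

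Fanconi genes went both ways in Dox plus. Fancl read 8.41 and 9.02 (0.61) and Fance 7.28 and 7.69 (0.41), while Fanca was near level at 5.64 and 5.59 (-0.06) and Fancg lay lower, at 7.88 and 7.19 (-0.69). Fanci read 3.79 and 3.72 and Mus81 4.95 and 4.98, so neither was measured in these crypts. Of the Ku genes, Xrcc6 differed by 0.57 and Xrcc5 by -0.09. Parp2 differed by 0.55 and Xrcc1 by 0.38, and Neil3 read 7.35 and 6.84 (-0.51). Fancg and Neil3 were the 2 measured genes furthest below 0.

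Interferon-stimulated genes moved with the same contrast: Dox plus was below Dox minus by 2-fold or more for each of the 12 measured, and their median was -4.28. So did the measured B and plasma cell genes (2 of 2 at least 2-fold lower, median -2.04). Of all measured genes, 5.35% were at least 2-fold lower. Of 2 measured fibroblast genes, Vim differed by -1.78 and Pdgfrb by -0.32 or beyond. The 3 measured T cell genes ranged from -0.26 to 0.19. The 4 measured myeloid genes had a median of -0.05. Among them Laptm5 was lower (-1.53), Lyz2 was higher (0.71), and Csf1r (-0.08) and Cd14 (-0.02) were near level. The part of these genes in the repair gene values was not tested.

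**Figure D3:**
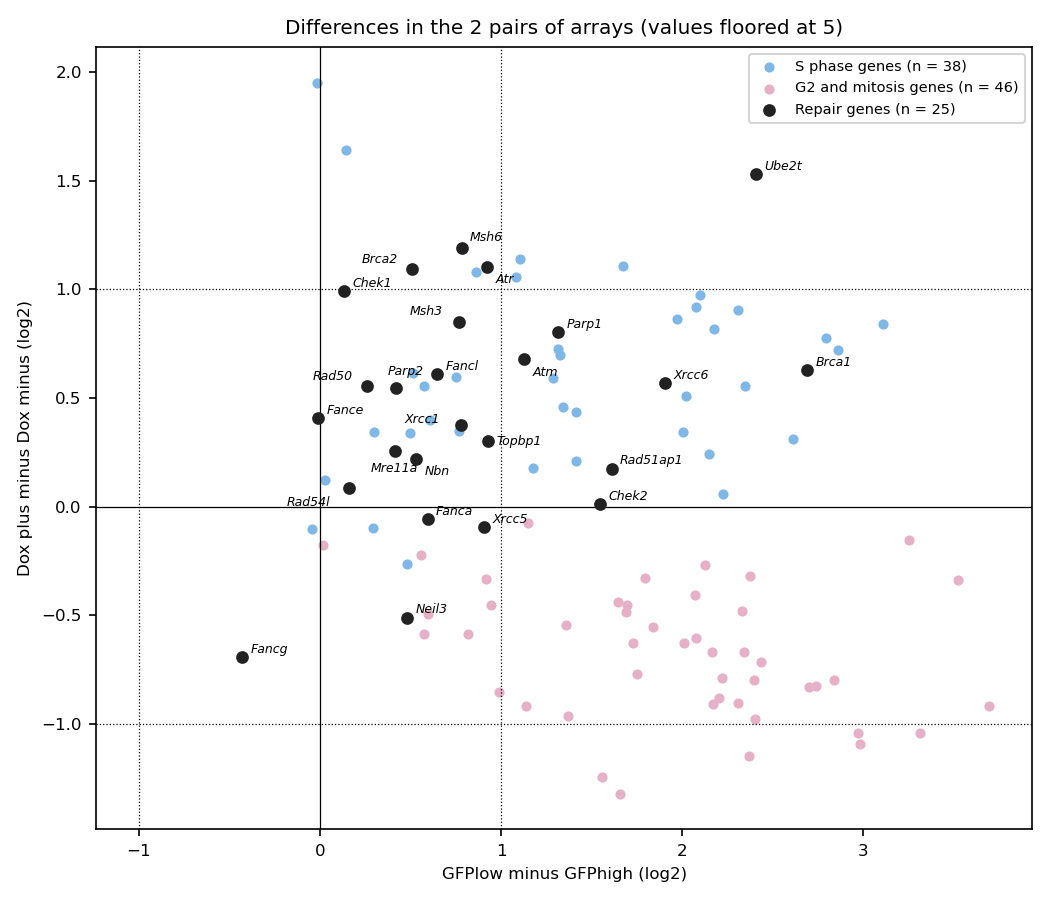
Difference of each gene measured in both pairs, GFPlow minus GFPhigh on the horizontal axis and Dox plus minus Dox minus on the vertical axis (log2); dotted lines mark 2-fold. Of the 25 black repair genes 20 lie above 0 on both axes, as do most blue S phase genes, and all 46 pink G2 and mitosis genes lie below 0 on the vertical axis.

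The pairs share no array, so the differences were set side by side. Of 25 repair genes measured in both pairs, 20 (80.0%) were above 0 in both, against 37.4% of 9023 genes. Fanca, Xrcc5 and Neil3 were above 0 in GFPlow but not in Dox plus, Fance the reverse, and Fancg was below 0 in both. Ube2t alone was at least 2-fold higher in both pairs. Brca1, Rad51ap1, Atm, Chek2, Xrcc6 and Parp1 passed 2-fold in the sorted cells and not in the crypts, and Brca2, Msh6 and Atr in the crypts and not in the sorted cells. These counts of 1, 6 and 3 of 25 (4.0%, 24.0% and 12.0%) stand beside 183, 600 and 394 of 9023 genes (2.03%, 6.65% and 4.37%). Whether a gene's differences differ between the pairs was not tested. Across the 25 genes, Spearman's rho between the differences was 0.29, beside 0.39 for all 9023 genes. The points of each axis share the same 2 arrays.

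Set beside cell cycle genes, the median of the repair genes lay nearer to that of the S phase list than to that of the mitotic list. In the sorted cells the medians were 0.77 for repair genes, 1.32 for 38 S phase genes and 2.07 for 46 G2 and mitosis genes. In the crypts they were 0.55, 0.56 (40 genes) and -0.65 (46 genes). Of the S phase genes 36 of 40 were above 0 in Dox plus, and of the G2 and mitosis genes 0 of 46, against 55.0% of all measured genes.

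**Figure D4:**
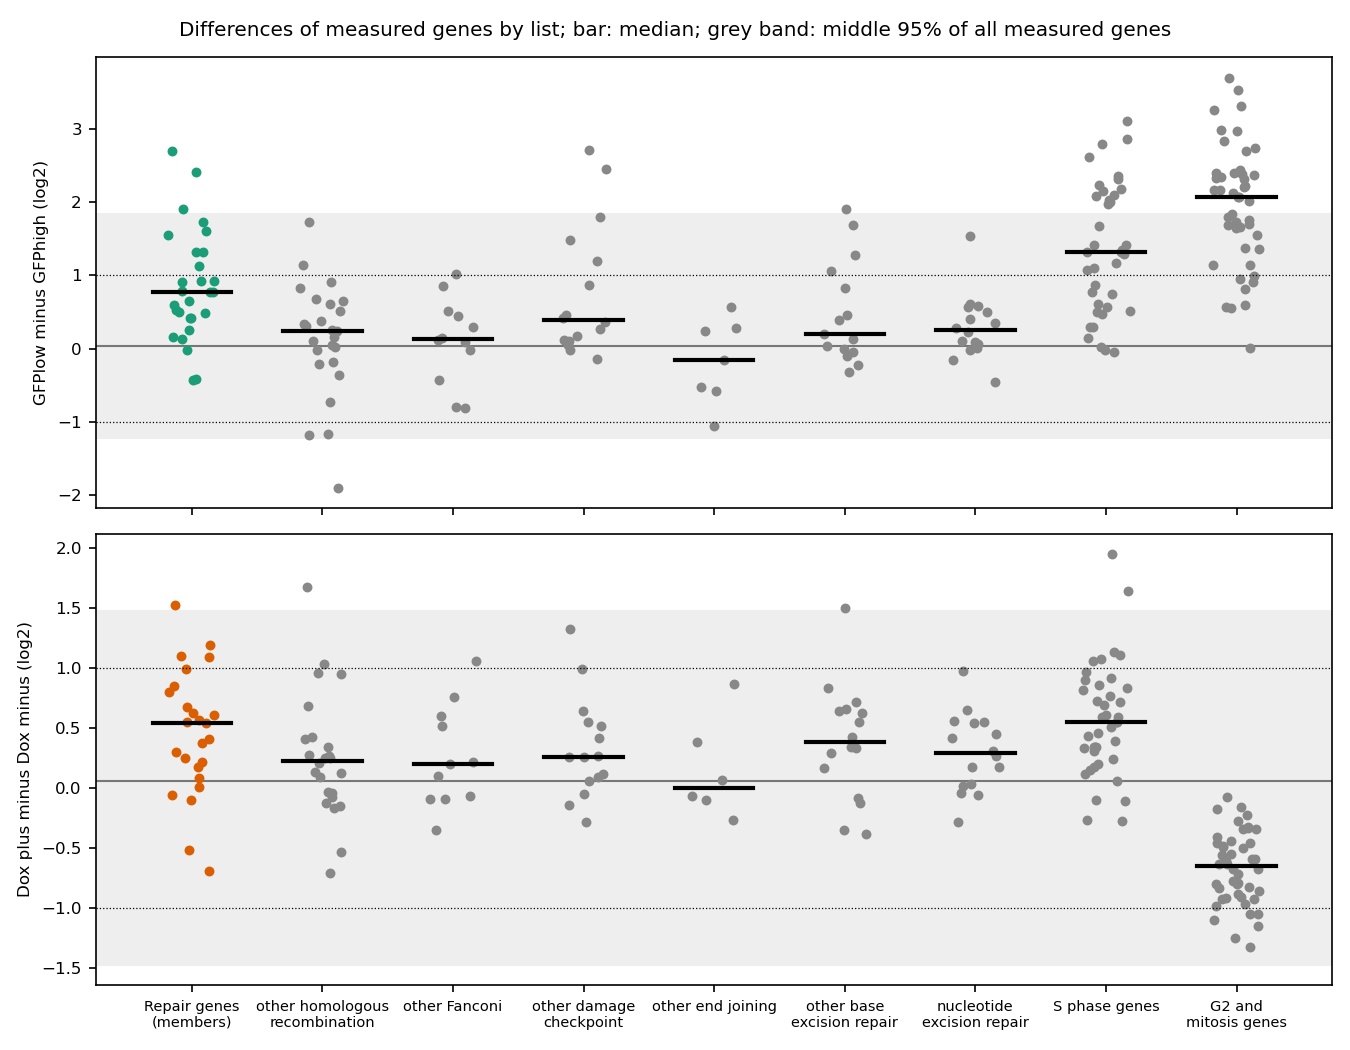
Differences in log2 units of the measured genes of each list, GFPlow minus GFPhigh (upper) and Dox plus minus Dox minus (lower); each point is a gene, the black bar the list median, the grey line the median and the grey band the middle 95% of all measured genes. The repair gene medians of 0.77 and 0.55 lie above that of each other repair list shown (the other mismatch repair list, with 1 measured gene, is not plotted), and the G2 and mitosis list changes side between the panels.

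Other repair genes had smaller median differences than those above. Of 92 measured in the sorted cells, 66 were above 0 (71.7%, against 53.2% of all genes), with a median of 0.24. At least 2-fold higher in GFPlow were 14 (15.2%, against 8.81% of all genes) and at least 2-fold lower were 4 (4.35%, against 4.3%). In the crypts 64 of 89 were above 0 (71.9%, against 55.0% of all genes), with a median of 0.27. There 5 were at least 2-fold higher (5.62%, against 6.93%) and 0 lower (against 5.35%).

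Among the other checkpoint genes were some of the larger differences. In GFPlow 5 of 16 were at least 2-fold higher (31.2%, against 8.81% of all genes) and 0 lower (against 4.3%). Clspn, the adaptor through which ATR activates CHEK1, read 5.26 in GFPhigh and 7.97 in GFPlow (2.71), and the fork-protection factor Tipin 6.15 and 8.60 (2.45). Rad9a, of the clamp that marks damage, differed by 1.80, the histone variant gene H2ax by 1.48 and the kinase gene Wee1 by 1.19. In the crypts 1 of 15 was at least 2-fold higher (6.67%, against 6.93% of all genes). This was Timeless, the partner of Tipin, at 5.63 in Dox minus and 6.96 in Dox plus (1.33).

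Other base excision genes included those that also serve replication. Lig1, the ligase that seals Okazaki fragments, differed by 1.90 in GFPlow and the endonuclease gene Apex1 by 1.69. The uracil glycosylase gene Ung differed by 1.28 and the flap nuclease gene Fen1 by 1.06. So 4 of 15 were at least 2-fold higher (26.7%, against 8.81% of all genes). In the crypts Apex1 read 9.55 without and 11.05 with doxycycline, and was the only 1 of 16 past 2-fold (6.25%, against 6.93%).

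Other recombination genes went both ways in the sorted cells, with 2 of 25 at least 2-fold higher (8.0%, against 8.81% of all genes) and 3 lower (12.0%, against 4.3%). The end-resection nuclease gene Dna2 differed by at least 1.73 and the single-strand binding subunit Rpa2 by 1.14. The helicase genes Recql5, at 9.15 in GFPhigh and 7.25 in GFPlow (-1.90), and Wrn (-1.18) and the topoisomerase gene Top3a (-1.17 or beyond) were lower. In the crypts Dna2 (1.68) and the nuclease gene Exo1 (1.04) were the 2 of 24 past 2-fold (8.33%, against 6.93%), and 0 were lower.

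Other Fanconi genes had 1 of 12 past 2-fold in GFPlow (Faap20, 1.01), or 8.33% against 8.81% of all genes, and 1 of 11 in Dox plus (Mad2l2, 1.06), or 9.09% against 6.93%. Of the other mismatch repair genes only Mlh3 was measured, at 1.03 and 0.28. Other end joining genes had a median of -0.15 over 7 genes in the sorted cells, with the ligase gene Lig4 at -1.05, and of 0.00 over 6 in the crypts, where Prkdc, the kinase that Ku recruits, differed by 0.87. Nucleotide excision repair, which removes bulky lesions in dividing and resting cells alike, had medians of 0.25 and 0.29 over 16 genes. Of these Ercc8 (1.54 in GFPlow) alone passed 2-fold (6.25%, against 8.81% of all genes), and Xpc (0.98 in Dox plus) came nearest in the crypts.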

How the data were processed

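The deposited table holds log2 expression for 45101 probe sets on 4 arrays. Per the submitters' processing notes, the authors used GCRMA to make these values. GCRMA subtracts a background modelled from probe sequence, so low values carry little information. The sources used here name neither its version nor the arrays it was run on together. That the scale is log2 was judged from the range, 0.47 to 16.27. From these values, probe sets with 1 gene symbol (34958, against 932 with several and 9211 with none) gave 18194 genes, each at its probe set with the highest mean. Values under 5 were raised to 5, differences were taken within a pair, and 2-fold differences were counted. Calculations used Python 3.11.15, numpy 2.4.6, pandas 2.3.3 and scipy 1.17.1, and were tested on simulated data. No test was run, since each group had 1 array, and precision is limited by the number of arrays.

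All repair genes on the list are named. Of other repair genes, those past 2-fold are named, and otherwise up to 2 of a list with the largest differences. Promoters were those of the largest differences and of the one nearest to 0. The genes and lists were chosen with earlier results of these data known. Alternatives were floors of 4 and 6, no floor, quantile normalization, a loess correction (span 0.4), the mean of probe sets, dropping those whose names end in _x_at, _s_at or _a_at and are less specific, and a 1.5-fold threshold.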

Additional observations from a re-analysis of the deposited data

How the results depend on the processing

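No paired analysis was possible because each group had 1 array. Medians of the repair genes kept their sign in every setting, from 0.61 to 0.90 in the sorted cells and from 0.38 to 0.56 in the crypts. A 1.5-fold threshold, which admits more genes by construction, gave 17 repair genes higher in GFPlow (9 at 2-fold), and 10 higher and 1 lower in Dox plus (4 and 0). For the other repair genes it gave 23 higher and 7 lower in GFPlow (14 and 4), and 20 higher and 1 lower in Dox plus (5 and 0). At that threshold 18.4% of all measured genes were higher and 12.6% lower in GFPlow, and 17.4% were higher and 11.7% lower in Dox plus. A loess correction gave 2 of 25 repair genes 2-fold higher in Dox plus, against 5.41% of all genes. For the other repair genes, quantile normalization and loess each gave 3 of 89, against 5.62% and 5.41% of all genes. The count of other repair genes 2-fold lower in GFPlow was 2 of 83 with a floor of 6, against 3.92% of all genes. With the mean of probe sets it was 2 of 92, against 4.25%. The causes were not tested. Over all genes, loess moved the share of 2-fold calls that were higher in Dox plus from 56.4% to 45.8%. Of single repair genes, 17 of 185 alternative values in the sorted cells and 7 of 168 in the crypts moved by more than the median gap between probe sets. None past 2-fold changed sign. Many of these values could not move, so the counts are no measure of robustness. Changing the floor leaves a gene above 6 on both arrays as it was, and cannot reverse a sign. Averaging leaves a gene with 1 measured probe set as it was. Signal over background limits the list, since 12 of 40 repair genes never reached the floor.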

Other observations

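The 12 repair genes under the floor on all 4 arrays read from 1.89 to 4.95. Without the floor, Rad54b read 3.34 in GFPhigh and 4.36 in GFPlow, and 3.95 in Dox minus and 4.35 in Dox plus. Eme1, the partner of MUS81, read 2.53 and 3.54 in the sorted cells and 2.60 on both arrays of crypts. Palb2 read 3.34 and 3.87 in the sorted cells, and 3.70 in Dox minus and 4.83 in Dox plus. Brip1 read 3.09 and 3.99 in the sorted cells and 4.50 and 4.48 in the crypts. Fancc read 4.48 in GFPhigh and 3.68 in GFPlow. These values lie where the background model sets the reading, so none was counted as a difference.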
